A study of Homo sapiens with 2 samples.

Results

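Integrins and the proteins of focal adhesions were examined in the human lung cancer line H1299, as 39 genes fixed by name: 16 integrin chains of the plasma membrane and 23 intracellular adhesion proteins. All 39 were found among the 38637 genes of the deposited table. The study compared H1299 cells in which the chromatin regulator PHF12 was knocked down with control H1299 cells, to ask how PHF12 acts on EGFR and AKT signalling. Both groups carry the genotype label wild type. The control is labelled as having received no treatment although its title ends in nc, and the knockdown title carries the prefix si. Each group was 1 RNA-seq library of 1 line, so every difference below describes a pair of libraries. It has no replicate check, no p-value was made, and the intervals cover counting error only.

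Integrins are receptors made of 1 alpha and 1 beta chain that bind laminin, collagen, fibronectin or vitronectin outside the cell. Inside the cell, talin and kindlin bind the beta chain tail and switch the receptor on, vinculin and alpha-actinin tie it to actin, and the kinases FAK and SRC signal from the adhesion. Which alpha chain meets which beta chain sets the ligand, and in carcinoma cells these receptors carry spreading and migration.

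Counts summed to 24740581 in the control and 26084594 in the knockdown. PHF12 itself had 947 and 756 counts in that order, 0.753 of the control level (95% counting interval 0.683 to 0.829). Of the 14559 genes with a mean of at least 1 count per 1000000, 8.90% had a larger absolute fold change than PHF12. The line was checked against its markers by TPM, a level per gene length and per 1000000 transcripts. VIM stood at 5349 and 4876 TPM, KRT18 at 2189 and 1772 and KRT8 at 1147 and 888, while CDH1 had 0 counts in both libraries. Of the other markers of epithelial lines, KRT19 had 5 and 13 counts and EPCAM 19 and 25. Of the other mesenchymal markers, CDH2 had 24.4 and 28.7 TPM and ZEB1 17.2 and 17.4. Of the 5 lung epithelial markers and the 4 leukocyte markers none reached a mean of 1 CPM (counts per 1000000). The 4 fibroblast markers summed to 0.609 and 0.522 TPM, the 3 endothelial markers to 1.12 and 1.23. Among these, PDGFRB with 34 and 29 counts, PECAM1 with 43 and 50 and VWF with 30 and 36 passed that mean.

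Most adhesion genes differed little between the libraries, and vinculin alone lay past 1.5-fold. A gene was taken as measured at a mean of at least 1 CPM, which 13 integrin chains and 22 intracellular proteins reached. The log2 fold change compares knockdown CPM plus 0.5 with control CPM plus 0.5. Over the integrin chains the median was 0.08 (range −0.32 to 0.24), with 10 of 13 above 0. Over the intracellular proteins the median was −0.09 (range −0.93 to 0.47), with 14 of 22 below 0, and it was −0.09 without VCL too. The median over all 14559 measured genes was −0.01, with 48.4% above 0. In absolute size the median was 0.12 over the measured members and 0.13 over all measured genes. The class medians thus lay on opposite sides of that of all genes, close to it, and stood 0.17 apart.

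**Figure D1:**
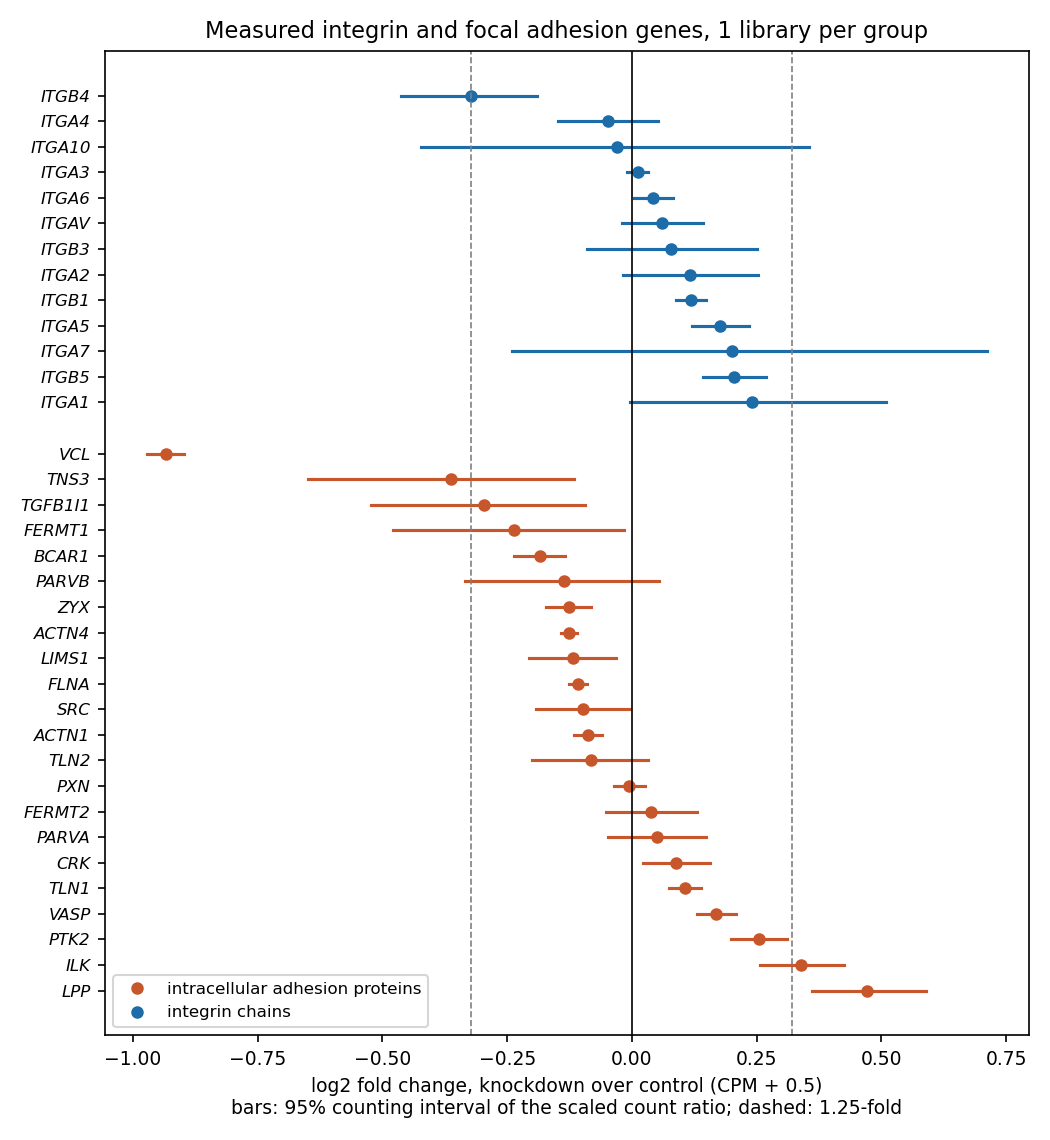
Each point is the log2 fold change (x axis, knockdown over control, CPM plus 0.5) of a measured gene, blue for the 13 integrin chains and orange for the 22 intracellular adhesion proteins. Bars are 95% counting intervals of the scaled count ratio and dashed lines mark ±0.32, the size of a call. VCL lies far left at −0.93, LPP and ILK lie beyond the right line, and 10 integrin chains lie right of 0.

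A gene was called at a log2 fold change of at least 0.32 in size, which is 25% higher than the control or 0.8 of it. By that rule 2 intracellular proteins were called lower (VCL and TNS3) and 2 higher (ILK and LPP). That is 9.09% of the 22 in each direction, beside 8.02% of all measured genes called lower and 6.99% called higher, so these counts were near the background. No integrin chain was called in either direction. Past 1.5-fold lay VCL alone of the 35 measured members, with 1.41% of all genes lower and 1.33% higher at that size. No member reached 2-fold, a size that 0.117% of all genes reached downwards and 0.117% upwards. The counting interval of the ratio lay below 1 for 1 integrin chain and 11 intracellular proteins, and above 1 for 4 and 6. Over all measured genes these shares were 20.9% and 20.3%, but the members are counted more deeply, with a median of 90.6 CPM against 27.1, and deeper counts give narrower intervals.

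**Figure D2:**
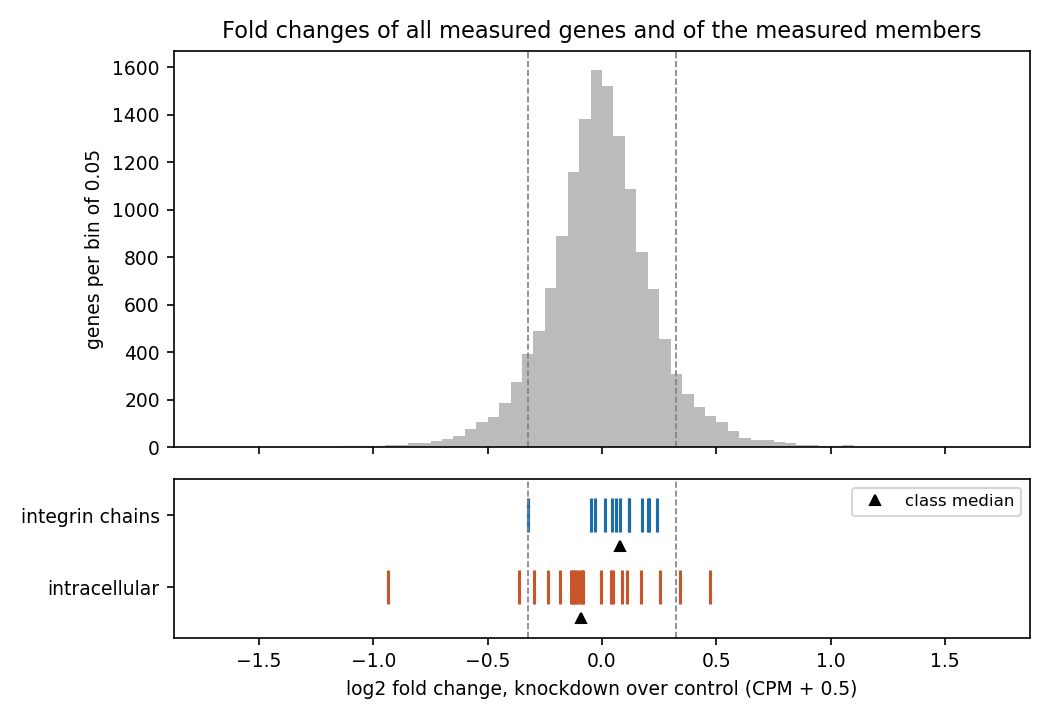
The upper panel is a histogram of the log2 fold change (x axis) of the 14559 measured genes, in genes per bin (y axis). Ticks in the lower panel are the measured members, triangles are the class medians of 0.08 and −0.09, and dashed lines mark the size of a call. Most ticks lie in the central mass of the histogram and VCL stands apart at −0.93.

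Among the receptors, the laminin-binding chains were the most abundant. ITGA3, which forms the laminin receptor α3β1, had 797 TPM in the control and 817 TPM in the knockdown library, the highest level of any integrin chain in both. It made up 67.3% and 66.2% of the TPM of the 11 alpha chains. Its counts of 35247 and 37684 gave a ratio of 1.01 (0.994 to 1.02), level within counting error. ITGA6, the laminin-binding chain that pairs with β1 or β4, had 189 and 198 TPM and a ratio of 1.03 (1.003 to 1.06). ITGA7, a laminin receptor known from muscle, was low at 1.59 and 1.90 TPM, and its 69 and 86 counts left an interval from 0.846 to 1.64.

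ITGB4, the chain that anchors hemidesmosomes to keratin filaments, was the only measured integrin chain whose interval lay below 1. It lies on chromosome 17 from 75721339 to 75757819 (hg38, plus strand), with 966 control counts and 817 knockdown counts, or 15.8 and 12.8 TPM. The ratio of 0.798 (0.726 to 0.876) put it at a log2 fold change of −0.32, at the very edge of the rule for a call. Its span shares 6351 bases with GALK1 on the other strand (1066 and 991 counts), and the strand setting of the counting is not given, so reads there could not be told apart. Its partner ITGA6 was not lower.

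ITGB1, the beta chain shared by most alpha chains, stood second in level with 452 and 499.6 TPM, 80.2% and 80.0% of the TPM of the 5 beta chains. Its ratio was 1.09 (1.06 to 1.11) on 16167 and 18610 counts, and it has a listed pseudogene, ITGB1P1. Together the 11 alpha chains summed to 1184 and 1235 TPM and the 5 beta chains to 564 and 624 TPM. The alpha to beta make-up was thus nearly the same in both libraries.

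The 4 measured chains that bind fibronectin and vitronectin through the RGD peptide were above 0. ITGA5, of the fibronectin receptor α5β1, had 4572 and 5482 counts, 119 and 137 TPM, and a ratio of 1.13 (1.09 to 1.18). ITGB5, of the vitronectin receptor αvβ5, had 3656 and 4472 counts, 85.7 and 101 TPM, and a ratio of 1.15 (1.10 to 1.205). For both the interval lay above 1, at a size well under that of a call. The αv chain and β3, another of its partners, stood nearer to level. ITGAV had 36.1 and 38.3 TPM with a ratio of 1.04 (0.986 to 1.10), and ITGB3 had 10.2 and 10.9 TPM with 1.06 (0.939 to 1.19). The 5 RGD-binding chains summed to 251 and 287 TPM, a ratio of 1.14. By the same measure the 4 laminin-binding chains stood at 1.03 and the 4 collagen-binding chains at 1.097. The shared chain ITGB1 stood at 1.104, and ITGA4 with ITGA9 at 0.983. Ratios of TPM run slightly above those of scaled counts. The median log2 fold change of all measured genes was 0.02 by TPM and −0.01 by counts.

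Collagen receptors were scarce. ITGA2 had 12.1 and 13.3 TPM, ITGA1 2.39 and 2.89 and ITGA10 2.22 and 2.21. ITGA1 had the highest fold change of the integrin chains, 0.24, but on 228 and 288 counts its interval of 0.998 to 1.42 included 1, as did those of ITGA2 and ITGA10. ITGA4, which binds VCAM1 and fibronectin, had 24.4 and 24.0 TPM and a ratio of 0.967 (0.902 to 1.04). ITGA1 shares 16129 bases with PELO on the same strand.

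Below 1 CPM lay 3 integrin chains and 1 adaptor. ITGA9 had 14 and 13 counts, ITGB8 23 and 22, and the actin-binding adaptor TNS1 17 and 16. ITGA11, a collagen receptor of fibroblasts, had 16 and 6 counts and an interval of 0.113 to 0.951. At these depths folds are poorly fixed.

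**Figure D3:**
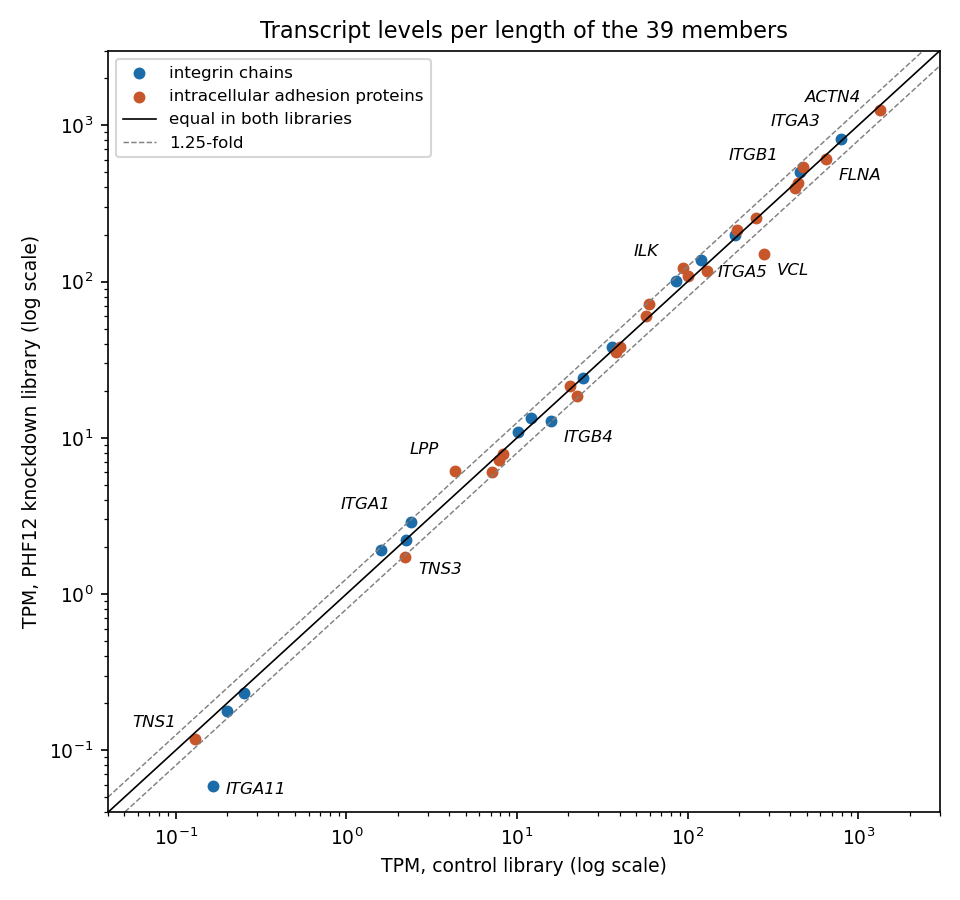
TPM of all 39 members in the control library (x axis) and the PHF12 knockdown library (y axis), both on log scales, with blue integrin chains and orange intracellular proteins. The solid line is equality and dashed lines are the size of a call. Levels span from under 1 TPM to 1335 TPM for ACTN4, and VCL, at 281 and 149.6 TPM, is the point farthest below the line among the abundant genes.

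Of the proteins that link integrins to actin, vinculin was much lower. VCL lies on chromosome 10 from 73998116 to 74121363 (hg38, plus strand). It was counted 16719 times in the control and 9274 times in the knockdown library. Its level went from 281 TPM, sixth of the 23 intracellular proteins, to 149.6 TPM, eighth. The ratio was 0.523 (0.510 to 0.537), and only 50 of the 14559 measured genes (0.343%) had a larger absolute fold change. In bulk RNA, fewer cells with the transcript and less transcript per cell cannot be told apart. The last 1352 bases of its span overlap AP3M1 on the other strand, which had 2090 and 2187 counts.

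Other proteins of the link that vinculin belongs to stood closer to level. TLN1, the main talin, had 194 and 213 TPM and a ratio of 1.08 (1.05 to 1.10), so it was slightly higher where VCL was lower. TLN2 had 1199 and 1200 counts and a ratio of 0.944 (0.870 to 1.02). PXN, the scaffold paxillin, had 249.9 and 253 TPM and a ratio of 0.996 (0.975 to 1.02), level between the libraries. ACTN1, an alpha-actinin that crosslinks actin, had 445 and 426 TPM and a ratio of 0.941 (0.922 to 0.960). ACTN4, the other alpha-actinin and the most abundant member, had 1335 and 1244 TPM and a ratio of 0.916 (0.906 to 0.926), with pseudogenes ACTN4P1 and ACTN4P2 listed.

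FLNA, a filamin that binds beta chain tails and actin, had 645 and 609 TPM and a ratio of 0.928 (0.916 to 0.9398). The kindlins, which activate integrins with talin, stood on either side of 1. FERMT2 had 57.3 and 59.9 TPM and a ratio of 1.03 (0.964 to 1.10). FERMT1, the epithelial kindlin, was low at 7.09 and 6.08 TPM with a ratio of 0.843 (0.718 to 0.989). TNS3, a tensin that binds the NPxY motif of beta chains, was called lower. It lies on chromosome 7 from 47275154 to 47582553 (minus strand), had 263 and 214 counts or 2.21 and 1.73 TPM, and a ratio of 0.767 (0.638 to 0.923). By deposited TPM its log2 fold change was −0.28, and the call was lost. Of the 7 measured activators and linkers, 5 were below 0, with a median of −0.11.

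The complex of ILK, PINCH and parvin, which couples beta chains to actin, was split. ILK, its pseudokinase core, lies on chromosome 11 from 6603748 to 6610873 (plus strand). It had 1972 counts and 94.1 TPM in the control and 2648 counts and 121 TPM in the knockdown library. The ratio was 1.27 (1.19 to 1.34), so the lower bound lay under the size of a call. TAF10 lies across 4580 bases of the ILK span on the other strand and was also higher, with 2548 and 3158 counts, and reads of the pair could not be told apart. LIMS1, which encodes PINCH1, had 37.9 and 35.5 TPM and a ratio of 0.921 (0.867 to 0.979), and its near-identical copies make its reads uncertain. PARVA had 1620 and 1779 counts and a ratio of 1.04 (0.968 to 1.11). PARVB had 446 and 429 counts and a ratio of 0.907 (0.793 to 1.04). ILK was thus called higher and its partners were not called.

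Signalling proteins of the adhesion showed small differences in both directions. PTK2, the focal adhesion kinase FAK, had 4750 and 6010 counts, 59.5 and 72.2 TPM, and a ratio of 1.19 (1.15 to 1.24), the highest of this group. SRC, the kinase that acts with FAK, had 40.2 and 38.2 TPM and a ratio of 0.934 (0.876 to 0.997). BCAR1, the p130Cas scaffold that SRC phosphorylates, had 130.1 and 116 TPM and a ratio of 0.880 (0.849 to 0.911), with pseudogenes BCAR1P1 and BCAR1P2 listed. CRK, the adaptor that binds phosphorylated p130Cas and paxillin, had 101 and 109 TPM and a ratio of 1.06 (1.02 to 1.11). TGFB1I1, the paxillin relative HIC-5, had 391 and 335 counts and a ratio of 0.808 (0.696 to 0.937). None of the 6 kinases and scaffolds was called.

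In the zyxin and VASP module, which promotes actin assembly at adhesions, LPP had the highest fold change of the measured members, at one of the lowest levels. LPP, a LIM protein related to zyxin, lies on chromosome 3 from 188152152 to 188890671 (plus strand). It had 1052 counts and 4.35 TPM in the control and 1551 counts and 6.15 TPM in the knockdown library, a ratio of 1.39 (1.28 to 1.505). Of all measured genes 5.89% had a larger absolute fold change. ZYX itself had 424 and 395 TPM and a ratio of 0.916 (0.888 to 0.944), opposite to its relative, with pseudogene ZYXP1 listed. VASP, which elongates actin filaments and binds both, had 471 and 539.5 TPM and a ratio of 1.12 (1.09 to 1.16). LPP shares 1937 bases with LPP-AS2 on the other strand (76 and 97 counts).

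The 3′ UTRs of the members were read for 7-base words known from an earlier look at these libraries, because the members with the lowest and the highest fold change, VCL and LPP, both held one. The words ACATCGA and CATCGAA, which overlap by 6 bases, were in 14.2% of the 169 protein-coding genes at least 1.5-fold lower and in 2.68% of all 12316 measured with an annotated 3′ UTR. The words TCGGAGA and ATCGGAG, which also overlap by 6 bases, were in 15.9% of the 126 genes at least 1.5-fold higher and in 3.08% of all. In the opposite direction, the former were in 4.76% of the 126 higher genes and the latter in 4.73% of the 169 lower genes, both also above the shares of all. The words were chosen on these fold changes with VCL among the lower genes, so a match is a description and no separate support. Of the 35 measured members, VCL and TLN2 carried the former and LPP and TGFB1I1 the latter, 5.71% in each case. The windows below are 30 bases of the transcript strand, 5′ to 3′, with the word in capitals. They come from GENCODE release 29 (GRCh38), at chr10:74119682-74119711, chr15:62842748-62842777, chr3:188876642-188876671 and chr16:31477858-31477887, all on the plus strand.
VCL: gttagttcccaACATCGAAtgtgtacaact
TLN2: taaagaacaggCATCGAAagtttatttttg
LPP: atgtaatacttTCGGAGAaattctctttag
TGFB1I1: aattccagcgaATCGGAGgccaggccagga

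In VCL both words of the lower genes ran together as 8 bases. TLN2 held 1 of them and stood at a ratio of 0.944, close to level. LPP held a word of the higher genes in a 3′ UTR of 16192 bases, against 3194 for VCL. The median length was 1875 for the members and 1370.5 for all measured protein-coding genes with a 3′ UTR. Longer UTRs hold any word more often, so the 5.71% of the members is not at like length with the shares of all genes. TGFB1I1 held the other word of the higher genes and stood lower, at 0.808. The direction of TGFB1I1 was thus opposite to that of its word. In VCL and LPP the match was known before the search and was the reason for it, so it is not an outcome. The part of these words in the fold changes was not tested.

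The promoters were read for the CArG box, the site of the serum response factor (SRF), because cytoskeletal genes are classic SRF targets. RefSeq windows (GRCh38.p14) from 250 bases before to 50 after each annotated start were at hand for 30 members, some with several starts. A box was in 4 of 62 member windows (6.45%), beside 1.29% of all windows of that length. The consensus is its own reverse complement, so both strands were covered. The 4 boxes are shown with 10 bases on each side and the box in capitals, at chr3:188212519-188212548 (plus strand), chr14:68977718-68977747 (minus), chr16:31473144-31473173 (plus) and chrX:154374709-154374738 (minus).
LPP: gcctgcttctCCATATTTGGaaatgtttac
ACTN1: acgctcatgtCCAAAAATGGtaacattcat
TGFB1I1: tggaggggagCCAAATTTGGcttgggtgaa
FLNA: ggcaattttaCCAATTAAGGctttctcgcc

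The 4 genes with a box had no common direction: LPP stood at a log2 fold change of 0.47, ACTN1 at −0.09, FLNA at −0.11 and TGFB1I1 at −0.30. The boxes of LPP, ACTN1 and TGFB1I1 lay inside the listed gene spans, before starts downstream of the 5′ end of the span. The box of FLNA lay before its span. The VCL window held none of these boxes.

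Genes around the members were described from 5 further lists. Of the integrin chains outside the members, mostly of blood cells, 4 of 10 were measured, at a median level of 4.31 CPM. Their median log2 fold change was −0.06, with 0 above 0 and 4 below, unlike the member chains. Of these ITGAM was called lower on 138 and 96 counts, with a ratio of 0.656 (0.5002 to 0.857), and was singled out after its values were seen. ITGAE had 5.83 and 5.86 TPM and a ratio of 0.987 (0.840 to 1.16).

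Extracellular ligands had a median of −0.04 over 23 of 30 measured, with 16 below 0, 1 called lower and none higher. LAMA5, the laminin α5 chain that α3β1 and α6β4 bind, was the one called, with 2739 and 2191 counts and a ratio of 0.754 (0.713 to 0.798). COL6A2, of collagen VI, stood at 0.810 (0.773 to 0.848) and LTBP1, which holds latent TGF-beta in the matrix, at 1.23 (1.11 to 1.36).

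Among partners of hemidesmosomes and tetraspanins, 1 of 8 was called lower (12.5%), beside 8.02% of all measured genes. That was PLEC, plectin, the linker from ITGB4 to keratin filaments, with 32634 and 27596 counts and a ratio of 0.797 (0.785 to 0.810), close to the 0.798 of ITGB4. The keratins KRT8 and KRT18, whose TPM are given above, were lower in the same library, and their part in these values was not tested. COL17A1, the hemidesmosomal collagen, stood at 1.22 (1.06 to 1.41) and the tetraspanin CD82 at 0.850 (0.802 to 0.902). DST, of the same list, stood at 1.04 (1.01 to 1.06). The list median was −0.08, with 3 genes above 0 and 5 below.

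Other adaptors and actin linkers had a median of −0.01 (22 of 26 measured), with 1 called lower, PDLIM7, a LIM protein of actin filaments, at 0.725 (0.692 to 0.759). FHL2, another LIM protein, stood at 0.836 (0.791 to 0.884) and EVL, the VASP relative, at 0.863 (0.798 to 0.933), while VASP was above 1. Adhesion signalling genes had a median of −0.02 (30 of 32 measured), with 1 called lower, the SRC-family kinase LYN at 0.795 (0.724 to 0.873). CSK, the kinase that switches SRC off, stood at 1.22 (1.15 to 1.31), and RAPGEF1, the exchange factor that CRK recruits, at 1.24 (1.19 to 1.29). Each of the 5 lists had 1 gene called lower and 0 called higher, beside 8.02% and 6.99% of all measured genes. The share called lower was 3.33% for signalling, 4.35% for ligands and 4.55% for adaptors. It was 12.5% and 25% in the 2 smallest lists, of 8 and 4 measured genes.

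**Figure D4:**
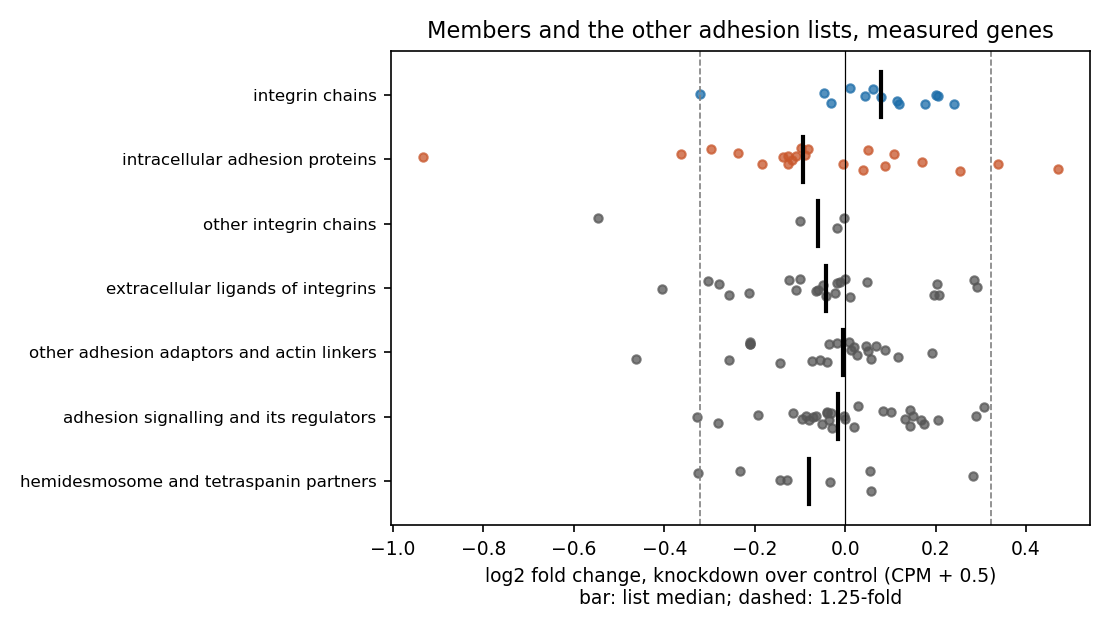
Each point is the log2 fold change (x axis, knockdown over control, CPM plus 0.5) of a measured gene, in rows for the integrin chains, the intracellular proteins and the 5 further lists. Bars are list medians and dashed lines mark the size of a call. Medians range from −0.09 to 0.08, and the points beyond the right line are the intracellular proteins ILK and LPP.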

How the data were processed

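RNA was poly(A)-selected, fragmented and sequenced as paired ends, per the labels' protocols. Per the submitters' processing notes, HISAT2, HTSeq and hg38 were used. Versions and the use of strand in counting were not given in the sources used here. Raw counts and TPM per gene are what the authors deposited, per the file headers. TPM were used for levels and counts for differences.

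Libraries were scaled over the whole table by edgeR 4.0.16 (R 4.3.3) with TMM, the trimmed mean of M-values. Intervals are exact conditional Clopper-Pearson 95% intervals for the ratio of 2 Poisson counts, with no pseudocount, and ratios carry none either. A call needed a pseudocounted log2 fold change of at least 0.32 in size. Calculations used Python 3.11.15, numpy 2.4.6, pandas 2.3.3 and scipy 1.17.1, and were tested on simulated data. The 3′ UTR is the longest of a protein-coding transcript in the GENCODE basic set, at least 20 bases, and was searched on the transcript strand.

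All measured members are named. From each of the 5 further lists, up to 3 genes of at least 5 CPM with the largest absolute fold change are named (1 among the other integrin chains). ITGAM and DST were named outside that rule. Beside those 5, 1 more list is not reported here. Members, lists and alternatives were chosen with earlier results of these data known. The alternatives were other scalings (total counts, DESeq2 1.42.0), pseudocounts, filters, fold sizes, deposited TPM and subsets of genes.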

Additional observations from a re-analysis of the deposited data

How the results depend on the processing

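The class medians kept their sign under every alternative that yields a median. All alternatives reuse the same pair of libraries, and a change of scaling shifts both medians together, so it cannot test their difference. Leaving out members that overlap a gene on the other strand kept 7 integrin chains and 10 intracellular proteins. Integrin chains ranged from 0.05 without the expression filter to 0.12 without members overlapping a gene on the other strand, intracellular proteins from −0.10 to −0.07, and their difference from 0.15 to 0.21. Scalings moved the median of all genes by at most 0.02. The count of integrin chains called lower went from 0 to 1 with a pseudocount of 0.1 (ITGB4) and to 1 without the filter (ITGA11, on 16 and 6 counts). For intracellular proteins, the 2 called lower became 1 with deposited TPM (TNS3 was lost), 1 without members overlapping a gene on the other strand (which leaves out VCL), 1 at 1.5-fold and 0 at 2-fold. The 2 called higher became 0 without overlapping members (which leaves out ILK and LPP), 0 at 1.5-fold and 0 at 2-fold. Leaving out members with a 3′ UTR word, an alternative chosen after seeing the data, left 1 lower and 1 higher. Among single members, 2 of 35 moved beyond their counting interval with DESeq2 size factors and 3 with deposited TPM. PXN, at −0.005 among the 14 intracellular proteins below 0, changed sign. It stood at 0.003 with total counts, 0.013 with DESeq2 size factors and 0.019 with deposited TPM. Folds of the members below 1 CPM are limited by depth. No paired analysis was possible because each group has 1 library, and no replicate could be left out.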
